A study of Mus musculus with 7 samples.

Results

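The 33 genes described here are markers of cells that line, support or fill the space around blood vessels. They comprise 15 endothelial, 13 fibroblast and 5 mural genes, chosen by symbol, and each matched 1 of the 55335 gene identifiers in the deposited table. The RNA came from type 2 innate lymphoid cells (ILC2s), tissue lymphocytes that carry the interleukin 33 receptor ST2, taken by cell sorting from mouse hearts on 3 criteria, namely CD45 present, lineage markers absent and ST2 present. Because CD45 marks blood-derived cells, the sort was set against endothelial, fibroblast and mural cells, which lack it. The study compared 3 libraries of naive hearts (naive replicates 1 to 3) with 4 libraries of BALB/c hearts transplanted into C57BL/6 (B6) recipients and taken on day 7 in acute rejection (allograft replicates 1 to 4). The time label of 7 days stands on the naive samples as well, and what it means for them is not stated. Cells of 4 to 7 hearts were pooled for each library. The labels listed no genotype and no treatment other than transplantation, and the strain, age and sex of the naive mice and the age and sex of the graft mice were not given in the sources used here. The replicates are therefore pools, and an allograft holds donor vessels and stroma together with recipient blood cells.

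Endothelial cells form the inner lining of vessels. They sense vascular endothelial growth factor through the receptors Kdr and Flt1 and angiopoietins through Tek, with Tie1 as its co-receptor, and they are joined to one another by Cdh5, Pecam1, Esam and Cldn5. Mural cells, which are pericytes and smooth muscle cells, wrap the endothelium, are recruited through the receptor Pdgfrb, and contract with Acta2 and Tagln. Fibroblasts carry the receptor Pdgfra and secrete the matrix of the heart, built from collagens, fibronectin (Fn1) and small proteoglycans such as Dcn and Lum. Several of the 33 genes are also known outside these cell types. Pecam1 is carried by leukocytes and platelets, Eng by activated macrophages, Vwf by platelets, and Fn1 and Sparc are made by macrophages or platelets.

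The promoters of 4 genes of the endothelial and mural groups are shown because these genes were all highest in 1 library, described further on. Promoter windows were found in RefSeq (build GRCm38.p6) for 20 of the 33 genes, and the 250 bases before the RefSeq start are printed 5′ to 3′ on the strand of the gene. Capitals mark AGGAAG, a core bound by ETS family factors, or its reverse complement CTTCCT in the endothelial genes Emcn (chr3:137340828-137341077, plus strand), Eng (chr2:32646345-32646594, plus strand) and Robo4 (chr9:37401722-37401971, plus strand). In the smooth muscle gene Acta2 (chr19:34255374-34255623, minus strand) capitals mark matches to the CArG box, the element bound by serum response factor, with at most 1 mismatch. In the GENCODE annotation Robo4 starts at 37401897 and Acta2 at 34255590, so the matches marked in both lie after those starts.
Emcn: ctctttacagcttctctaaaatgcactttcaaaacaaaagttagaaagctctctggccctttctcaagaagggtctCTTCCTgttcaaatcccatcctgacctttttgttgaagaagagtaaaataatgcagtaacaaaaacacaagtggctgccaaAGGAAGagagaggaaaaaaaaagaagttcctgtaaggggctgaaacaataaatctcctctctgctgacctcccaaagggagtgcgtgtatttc
Eng: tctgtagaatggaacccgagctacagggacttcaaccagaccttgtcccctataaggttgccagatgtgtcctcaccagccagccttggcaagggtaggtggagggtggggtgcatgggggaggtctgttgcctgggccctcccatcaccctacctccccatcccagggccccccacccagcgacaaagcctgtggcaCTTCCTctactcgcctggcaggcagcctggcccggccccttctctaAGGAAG
Robo4: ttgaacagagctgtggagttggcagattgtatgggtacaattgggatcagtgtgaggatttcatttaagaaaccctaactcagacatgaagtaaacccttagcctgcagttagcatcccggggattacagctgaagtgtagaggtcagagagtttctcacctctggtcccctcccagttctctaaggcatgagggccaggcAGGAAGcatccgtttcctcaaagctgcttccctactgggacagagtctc
Acta2: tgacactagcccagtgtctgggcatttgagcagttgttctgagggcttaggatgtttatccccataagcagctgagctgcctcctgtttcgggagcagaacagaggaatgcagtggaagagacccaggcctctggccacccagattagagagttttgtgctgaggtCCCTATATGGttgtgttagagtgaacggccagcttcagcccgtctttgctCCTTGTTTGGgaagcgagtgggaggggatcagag
In windows of 250 bases before to 50 bases after the start, read on both strands, AGGAAG was found in 6 of 9 endothelial genes (66.7%; Flt1, Tie1, Emcn, Egfl7, Eng and Robo4), 3 of 8 fibroblast genes (37.5%; Col5a1, Col6a1 and Postn) and 0 of 3 mural genes, against 35.4% of 32851 promoters of the same length. The CArG box with at most 1 mismatch was found in 2 of 3 mural genes (Acta2 and Cspg4), in 5 of 9 endothelial genes (55.6%; Kdr, Tek, Emcn, Egfl7 and Eng) and in 1 of 8 fibroblast genes (12.5%; Col1a2), against 21.1% of all promoters. These letter matches describe the windows and are not sites of binding, and the numbers of genes are small.

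Naive replicate 2 stood apart from the other 6 libraries. Markers of ILC2s (11 genes) summed to 1147 CPM (counts scaled to the library total) in it, against 10715 to 14664 CPM in the others. A list of 12 kidney tubule genes summed to 10994 CPM in it and to 70.8 to 331 CPM elsewhere, mitochondrial genes held 26.5% of its counts against 2.04 to 3.11%, and Ren1, the renin gene of the kidney arteriole, was at 33.6 CPM in it and at 0 in the other 6. Total counts lay between 29107326 and 53044907 per library, so that 3 counts, the limit a count of 0 allows, corresponded to 0.0566 to 0.103 CPM. Intervals and limits given here cover counting error only, since amplified reads are not independent molecules. The comparisons between groups are given with and without naive replicate 2.

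The summed level of each of the 3 groups of genes was highest in naive replicate 2. The 15 endothelial genes summed to 822 CPM there (95% Wilson interval 813 to 830 CPM), against 40.5 and 26.9 CPM in naive replicates 1 and 3 and 55.8, 61.5, 60.3 and 49.0 CPM in allograft replicates 1 to 4. The 5 mural genes summed to 429 CPM (423 to 435 CPM) in that library, against 16.2 and 3.12 CPM in the other naive libraries and 5.13, 5.86, 15.4 and 14.46 CPM in the allografts. Its sum was thus 13.4 times the highest other library for the endothelial genes and 26.5 times for the mural genes. For the 13 fibroblast genes the separation was smaller, at 389 CPM (384 to 395 CPM) or 2.95 times the highest other library, naive replicate 3 (132 CPM). The fibroblast sum was 3.64 CPM in naive replicate 1 and 56.2, 111, 64.1 and 78.3 CPM in the allografts.

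**Figure D1:**
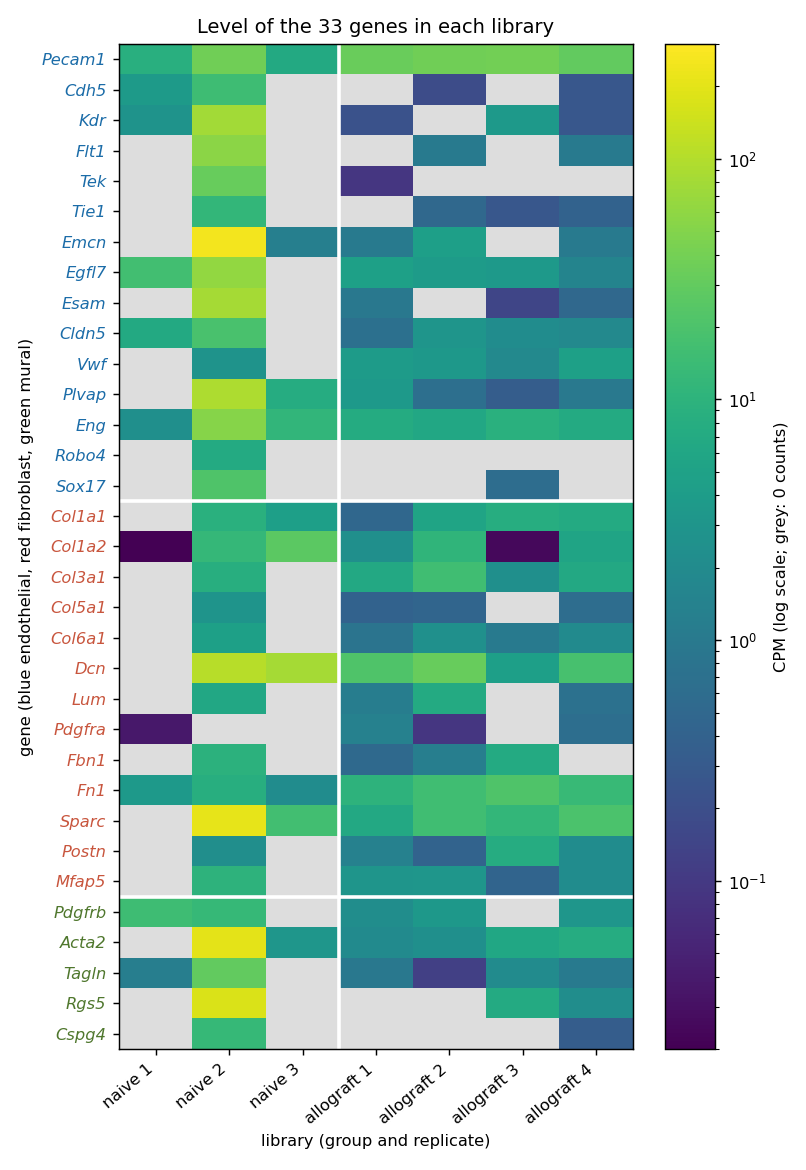
Level of each of the 33 genes (rows, coloured by cell type) in each of the 7 libraries (columns), as CPM on a log colour scale with grey for 0 counts. The column of naive replicate 2 is filled for 32 genes, naive replicates 1 and 3 are mostly grey, and Pecam1, Eng and Fn1 are the rows with over 3 counts in every library.

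Of the 33 genes, 24 were highest of the 7 libraries in naive replicate 2, and 17 were at least 4-fold above the highest other library. The same held for 24.9% and 11.8% of the 24982 genes with over 3 counts in any library, and for 19.7% and 6.12% of the 17015 genes tested. The 17 comprised 11 of 15 endothelial, 4 of 5 mural and 2 of 13 fibroblast genes. Over 3 counts were found for 32 genes in naive replicate 2, for 9 and 10 in naive replicates 1 and 3, and for 26, 25, 22 and 29 in allograft replicates 1 to 4. Pdgfra, the platelet-derived growth factor receptor that marks heart fibroblasts, was the exception and was at 0 in naive replicate 2. Of all genes, over 3 counts were found for 18549 in naive replicate 2 and for 14224 and 12492 in naive replicates 1 and 3. The allografts had 18788, 18311, 17347 and 18974 such genes. Naive replicates 1 and 3 thus held the fewest genes over all as well, and their low numbers are not a trait of the members alone. The naive replicate 2 values and the kidney tubule and mitochondrial values stand in the same library, and the part of the latter in the former was not tested. In bulk RNA, fewer cells of a type and less RNA per cell cannot be told apart.

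**Figure D2:**
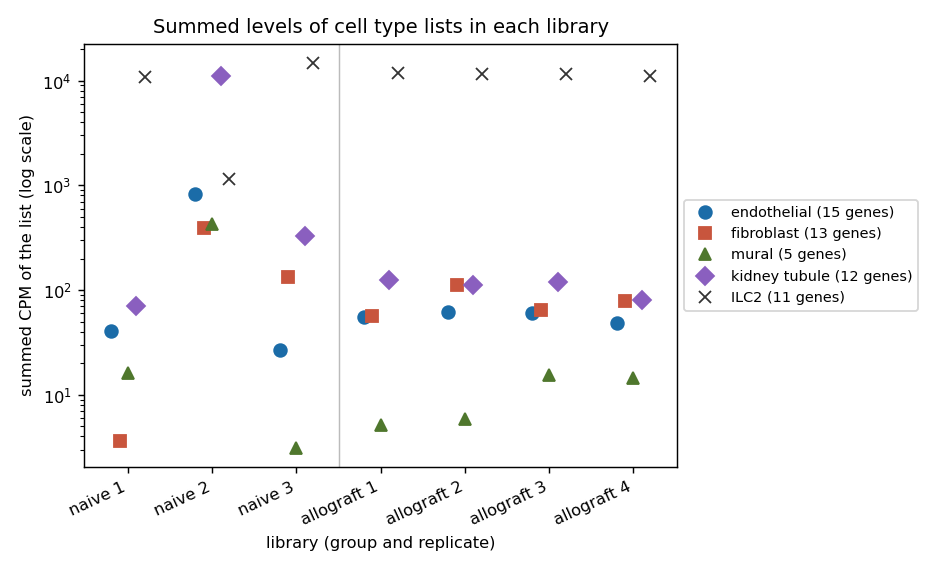
Summed CPM (log axis) of the endothelial, fibroblast, mural, kidney tubule and ILC2 gene lists in each of the 7 libraries, 1 point per list and library. In naive replicate 2 the first 4 lists are at their highest and the ILC2 list, at 1147 CPM, at its lowest.

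Among growth factor receptors of the endothelium, Kdr, the main signalling receptor for vascular endothelial growth factor, measured 2.79, 78.5 and 0 CPM in naive replicates 1 to 3 and 0.227, 0, 3.48 and 0.275 CPM in allograft replicates 1 to 4. Flt1, its decoy-like relative, was at 0, 56.5 and 0 CPM in the naive libraries and at 0, 1.02, 0 and 1.03 CPM in the allografts. Tek measured 32.6 CPM in naive replicate 2 and 0.0909 CPM in allograft replicate 1, with 0 counts in the other 5 libraries. These receptors were thus high in 1 library and at or near the counting limit in most others. Tie1 was at 11.6 CPM in naive replicate 2, at 0 in the other naive libraries and at 0 to 0.525 CPM in the allografts. Eng, a co-receptor for transforming growth factor beta family ligands, was present in all 7, at 2.43, 51.4 and 11.1 CPM in the naive libraries and 7.29, 6.42, 8.81 and 7.04 CPM in the allografts. Exons of Eng overlap those of Fpgs on the opposite strand, and strand use in counting was not stated. Fpgs measured 0, 11.0 and 2.20 CPM in the naive libraries and 8.20 to 11.9 CPM in the allografts. Reads in the exons that this pair shares could not be separated.

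Of the junction and surface proteins, Pecam1 (chr11:106654217-106750628 of mm10, minus strand), an adhesion molecule of endothelium and leukocytes, measured 8.62, 37.7 and 6.97 CPM in naive replicates 1 to 3. It measured 33.2, 37.8, 39.1 and 29.4 CPM in the allografts, a mean of 34.9 ± 4.401 CPM (SD, n = 4). Naive replicate 2 lay within the allograft range and the other naive libraries below it. Cdh5, the cadherin that defines endothelial junctions, was at 3.75, 15.03 and 0 CPM in the naive libraries and at 0, 0.185, 0 and 0.275 CPM in the allografts. The 2 genes thus did not run together: Pecam1 made up 59.5 to 64.8% of the endothelial sum in the allografts, while Cdh5 was at 0 in allograft replicates 1 and 3. Emcn (chr3:137341067-137432185, plus strand), a sialomucin of capillary and venous endothelium, measured 0, 250.8 and 1.28 CPM in the naive libraries and 1.04, 4.60, 0 and 1.03 CPM in the allografts. Plvap, which forms the diaphragms of fenestrated capillaries, measured 0, 92.8 and 7.59 CPM in the naive libraries and 3.63, 0.679, 0.343 and 0.962 CPM in the allografts. Both were more than 10-fold higher in naive replicate 2 than in any other library. Esam was at 81.1 CPM in naive replicate 2 and at 0 to 0.931 CPM elsewhere, and Cldn5, the tight junction claudin, at 6.82, 19.2 and 0 CPM in the naive libraries and 0.704 to 3.02 CPM in the allografts.

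The remaining endothelial genes were Egfl7, Vwf, Robo4 and Sox17. Egfl7, a secreted factor of growing vessels, measured 16.1, 63.7 and 0 CPM in the naive libraries and 1.51 to 4.68 CPM in the allografts. Vwf, the clotting glycoprotein stored by endothelium and platelets, was at 0, 2.77 and 0 CPM in the naive libraries and at 3.98, 3.39, 1.86 and 4.67 CPM in the allografts. Vwf and Pecam1 were the 2 endothelial genes that were not highest in naive replicate 2. Robo4, a guidance receptor largely restricted to endothelium, was at 7.14 CPM in naive replicate 2 and had 0 counts in the other 6 libraries, so that it was at least 69.3-fold higher there than the counting limit. Sox17, a factor of arterial endothelium, was at 20.9 CPM in naive replicate 2, at 0.612 CPM in allograft replicate 3 and at 0 in the rest.

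Among the fibroblast genes, Fn1 (chr1:71585520-71653200, minus strand), which encodes fibronectin, was the only one with over 3 counts in all 7 libraries. It measured 3.58, 8.24 and 2.13 CPM in the naive libraries and 10.1, 15.6, 21.3 and 13.02 CPM in the allografts, a mean of 15.01 ± 4.75 CPM (SD, n = 4), and the groups did not overlap. Fn1 made up 98.45% of the fibroblast sum in naive replicate 1. Sparc (chr11:55394500-55423183, minus strand), a matricellular protein that binds collagen, measured 0, 210.7 and 16.2 CPM in the naive libraries and 6.63, 15.9, 11.5 and 19.7 CPM in the allografts. Dcn, the proteoglycan decorin of collagen fibrils, was at 0, 105.1 and 82.5 CPM in the naive libraries and at 21.3, 31.9, 4.58 and 18.1 CPM in the allografts. Naive replicates 2 and 3 thus both held more Dcn than any allograft, while naive replicate 1 held none.

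Of the fibril-forming collagens, Col1a1 measured 0, 8.84 and 4.63 CPM in the naive libraries and 0.4997, 5.59, 8.05 and 7.08 CPM in the allografts. Its partner chain Col1a2 measured 0.0189, 11.9 and 26.4 CPM in the naive libraries and 2.41, 11.0, 0.0245 and 5.43 CPM in the allografts. In allograft replicate 3 the chains of collagen type I were therefore apart, with Col1a1 at its allograft maximum and Col1a2 near 0. Col3a1 (chr1:45311538-45349706, plus strand) was at 0, 8.40 and 0 CPM in the naive libraries and at 6.59, 15.8, 2.45 and 6.60 CPM in the allografts. Col5a1 and Col6a1, which take part in fibril assembly and in the microfibrillar network, were at 2.95 and 4.73 CPM in naive replicate 2, at 0 in both other naive libraries, and at 0 to 0.618 and 0.818 to 2.499 CPM in the allografts. Pdgfra was at 0.0377, 0 and 0 CPM in the naive libraries and at 1.36, 0.0926, 0 and 0.653 CPM in the allografts.

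The other matrix genes were at 0 in naive replicates 1 and 3. Lum, a keratan sulphate proteoglycan, was at 6.40 CPM in naive replicate 2 and at 1.158, 7.07, 0 and 0.722 CPM in the allografts. Fbn1, the fibrillin of elastic microfibrils, was at 9.54 CPM in naive replicate 2 and at 0.545, 1.23, 7.10 and 0 CPM in the allografts. Postn, a matricellular protein of activated fibroblasts, was at 2.33 CPM in naive replicate 2 and at 1.36, 0.432, 7.68 and 2.16 CPM in the allografts. Mfap5, which binds fibrillin, was at 10.1 CPM in naive replicate 2 and at 3.00, 3.18, 0.440 and 2.16 CPM in the allografts. The allograft libraries thus differed in which matrix gene was high: Lum in replicate 2, Fbn1 and Postn in replicate 3.

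Of the mural genes, Acta2 (chr19:34241090-34255590, minus strand), smooth muscle alpha actin, measured 0, 199.8 and 3.12 CPM in the naive libraries and 1.98, 2.41, 6.12 and 7.73 CPM in the allografts. Rgs5, a regulator of G protein signalling that marks pericytes, was at 174.9 CPM in naive replicate 2 and at 0 in the other naive libraries and in allograft replicates 1 and 2. It reached 7.15 and 2.20 CPM in allograft replicates 3 and 4. Pdgfrb, the receptor through which pericytes are recruited, had another pattern, at 14.9, 12.5 and 0 CPM in the naive libraries and 2.20, 3.33, 0 and 3.16 CPM in the allografts. It was highest in naive replicate 1, where it made up 92.3% of the mural sum. Tagln, an actin-binding protein of smooth muscle, was at 1.24, 29.6 and 0 CPM in the naive libraries and at 0.123 to 2.10 CPM in the allografts. Its exons overlap those of Pcsk7 on the opposite strand. Pcsk7 measured 12.5, 8.07 and 57.9 CPM in the naive libraries and 23.8 to 45.7 CPM in the allografts. Cspg4, the pericyte proteoglycan NG2, was at 12.4 CPM in naive replicate 2, at 0.344 CPM in allograft replicate 4 and at 0 in the rest.

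Levels of different genes were compared per length, with the deposited FPKM. In naive replicate 2 the highest levels were those of Acta2 (83.6 FPKM), Sparc (51.1 FPKM), Plvap (42.9 FPKM), Emcn (42.6 FPKM), Rgs5 (35.2 FPKM) and Esam (26.0 FPKM). In the allografts the mean level was highest for Pecam1 (4.84 ± 0.624 FPKM, SD, n = 4), followed by Sparc (3.05 ± 1.29 FPKM) and Dcn (2.81 ± 1.67 FPKM). Sparc and Dcn differed by less than 1 SD of either. Summed over the endothelial genes, the level was 186 FPKM in naive replicate 2 and 9.76 FPKM on average in the allografts. For the mural genes these sums were 136 and 3.03 FPKM.

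Allograft and naive libraries were compared over all genes with edgeR's quasi-likelihood test and Benjamini-Hochberg adjustment at 0.05. With all 7 libraries, 0 of the 28 members that passed the filter on low counts were called, beside 6 of 17015 genes tested (0.0353%; 0.0294% higher and 0.00588% lower). At an unadjusted p under 0.05, Cdh5 and Plvap were lower in the allografts (2 of 28, against 3.86% of all genes) and 0 were higher (against 6.41%). DESeq2 called 0 of the 16 members for which it gave an adjusted p, beside 6.40% of 19118 genes, and gave none for the other 17, among them Emcn, Pecam1, Acta2 and Rgs5. At an unadjusted p under 0.05 it had 5 of 16 (Cdh5, Egfl7, Plvap, Eng and Pdgfra), against 13.3% of 24028 genes. Of the 28 estimates 5 were above and 23 below 0, with a median log2 fold change of -2.23 beside -0.01 over all genes tested. Fn1 was the only member whose groups did not overlap, with all 4 allografts higher (3.57% of the members tested, against 12.5% of all genes tested), and 0 were lower without overlap (against 2.15%).

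Estimates from all 7 libraries were large where naive replicate 2 was high, and so were their standard errors. The log2 fold change, allograft over naive, was -6.24 (SE 2.78, adjusted p = 0.514) for Emcn and -5.11 (SE 2.17, adjusted p = 0.478) for Plvap. It was -4.46 (SE 2.17, adjusted p = 0.570) for Acta2 and -3.04 (SE 1.89, adjusted p = 0.699) for Sparc. Dcn, Pdgfrb and Rgs5 were at -2.10, -2.36 and -5.22, with adjusted p of 0.781, 0.810 and 0.699. Pecam1 and Fn1 lay above 0, at 0.54 (SE 0.75, adjusted p = 0.897) and 1.31 (SE 0.80, adjusted p = 0.685). Without naive replicate 2, Emcn moved to 1.29, Acta2 to 1.47 and Sparc to 0.64, with adjusted p of 0.839, 0.745 and 0.902. Rgs5, with 0 counts in both remaining naive libraries, changed direction as well (adjusted p = 0.312). The direction of these 4 estimates was therefore set by 1 library, and only Plvap (-1.49), Dcn (-1.20) and Pdgfrb (-1.80) stayed below 0 among the 7 named here that were, with adjusted p of 0.749, 0.800 and 0.744.

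Without naive replicate 2, Pecam1 was 2.12 higher in the allografts on the log2 scale (SE 0.37, adjusted p = 0.0440), with all 4 allografts above both remaining naive libraries. It was the only called member with over 3 counts in a remaining naive library. In that fit 3 of 29 members tested were past the threshold, all higher, beside 3.10% of 18037 genes tested in either direction, 3.00% higher and 0.0998% lower. The other 2, Vwf and Col3a1, had 0 counts in both remaining naive libraries and passed the filter on low counts through the allografts alone, so their adjusted p (0.0433 and 0.0437) is not used as support. Against 3 counts per library, a limit that covers counting error only, they were at least 55.4-fold and at least 125-fold higher. In naive replicate 2, the library left out, Vwf, Col3a1 and Pecam1 were at 2.77, 8.40 and 37.7 CPM, and all 3 calls are lost when it is included (adjusted p of 0.918, 0.953 and 0.897). Fn1 was 2.35 higher on the log2 scale (SE 0.62, adjusted p = 0.103) and was not called. Eng differed by 0.07 (SE 0.75, adjusted p = 0.978).

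At an unadjusted p under 0.05 without naive replicate 2, 10 members were higher and 0 lower, against 15.6% and 4.67% of all genes. They were Pecam1, Vwf and 8 fibroblast genes (Col3a1, Col5a1, Col6a1, Lum, Fbn1, Fn1, Postn and Mfap5), and 0 of the mural genes. Of these 10, 8 had at most 3 counts in both remaining naive libraries and passed the filter through the allografts alone, the exceptions being Pecam1 and Fn1. Groups did not overlap for 7 of the 10 (24.1% of the members tested, against 21.0% of all genes tested), a share close to the background, and 5 of the 7 were of that kind. So were 13 of the 29 members tested, 18.3% of all genes tested and 483 (86.2%) of the 560 genes called. As sums over members, the allograft over naive ratio moved from -2.39 to 0.75 on the log2 scale for the endothelial genes, from -1.18 to 0.19 for the fibroblast genes and from -3.87 to 0.08 for the mural genes when naive replicate 2 was left out.

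**Figure D3:**
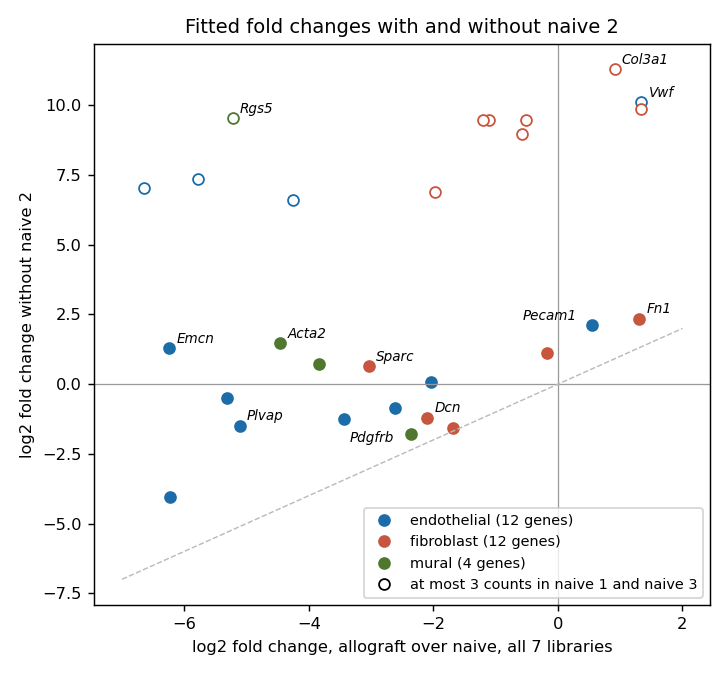
Log2 fold change, allograft over naive, of the 28 members tested in both fits, with all 7 libraries (x axis) and without naive replicate 2 (y axis). Points are coloured by cell type, open points are genes with at most 3 counts in both remaining naive libraries, and the dashed line marks equal values. Emcn, Acta2, Sparc and Rgs5 lie below 0 on the x axis and above 0 on the y axis.

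The allograft libraries were unlike one another in these genes. The coefficient of variation over the 4 allografts had a median of 71.3% for the 28 members tested, beside 30.1% for all genes tested, and levels near the counting limit have more of it from counting alone. It was 89.8% for the endothelial, 67.1% for the fibroblast and 73.8% for the mural members. Pecam1 (12.6%), Eng (13.7%) and Fn1 (31.6%) had the lowest values of the 28, and they are also the 3 with over 3 counts in all 7 libraries. Over 3 counts in all 4 allografts were found for 16 of the 33 members, namely 6 endothelial, 8 fibroblast and 2 mural genes. By contrast Rgs5 was at 0 in 2 allografts, and Tek and Sox17 in 3.

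**Figure D4:**
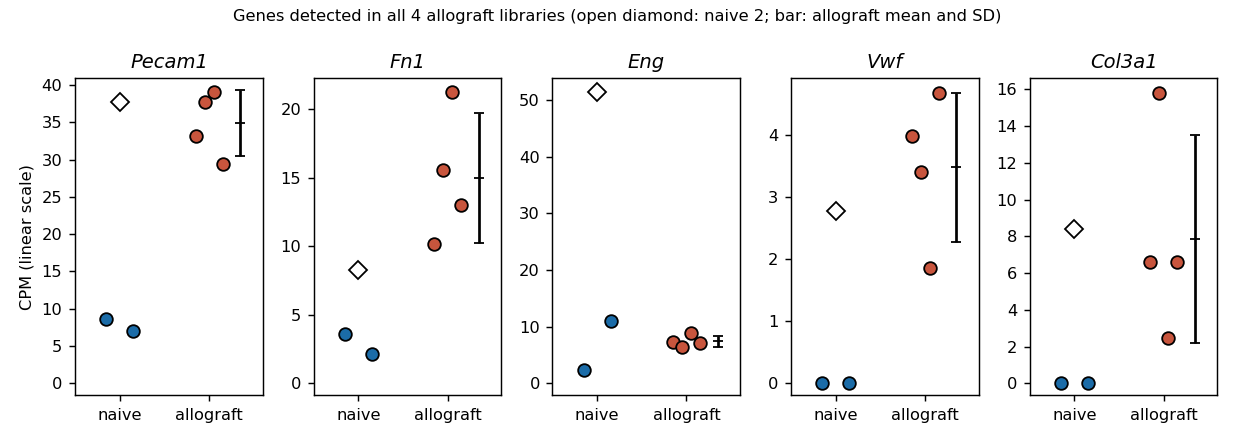
CPM (linear axes, 1 panel per gene, each with its own scale) of Pecam1, Fn1, Eng, Vwf and Col3a1 in the naive libraries (blue points, open diamond for naive replicate 2) and the allografts (red points, with mean and SD as a bar, n = 4). Naive replicate 2 lies within the allograft range for Pecam1, Vwf and Col3a1, below it for Fn1 and far above it for Eng.

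The ligands and partners of these receptors were read from a list of 15 genes. With all 7 libraries 0 of 11 tested were called by edgeR. Without naive replicate 2, 3 of 12 tested were past the threshold, all higher, beside 3.00% of all genes tested. They were Vegfc, a growth factor of lymphatic vessels (at least 84.3-fold), Pdgfb, the ligand of Pdgfrb (at least 66.0-fold), and Acvrl1, which signals with Eng (at least 70.9-fold). All 3 had 0 counts in naive replicates 1 and 3 and passed the filter through the allografts alone, so these are descriptions of the libraries. The folds are against 3 counts per library, a limit that covers counting error only. With all 7 their adjusted p was 0.969, 0.932 and 0.907. In naive replicate 2 these genes measured 6.79, 19.4 and 26.1 CPM, and Angpt2, a ligand of Tek, measured 147.1 CPM against at most 1.91 CPM elsewhere. Pdgfc and Pdgfd were at 19.2 and 11.9 CPM in that library and at 0 in the other 6. Of the 15 genes, 6 were at least 4-fold above the highest other library there, against 11.8% of all genes with over 3 counts. Others were closer to the rest or absent. Vegfa measured 0.0943, 37.3 and 30.65 CPM in the naive libraries and 3.79 to 7.94 CPM in the allografts. Nrp1 measured 11.9, 92.4 and 18.6 CPM in the naive libraries and 48.9 to 56.95 CPM in the allografts, and Pgf was at 0 in naive replicate 2.

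Among 6 adhesion molecules of endothelium, Icam1, which leukocytes also carry, measured 28.8, 51.3 and 49.6 CPM in the naive libraries and 150.5, 162.7, 142.3 and 141.2 CPM in the allografts. The groups did not overlap, and the log2 fold change was 1.51 (SE 0.38, adjusted p = 0.196) with all 7 libraries and 1.87 (SE 0.31, adjusted p = 0.0437) without naive replicate 2. The selectins and the venular receptor Ackr1 were near 0. Sele was at 0 to 1.32 CPM, Selp was found in allograft replicate 1 only (0.545 CPM) and Ackr1 in allograft replicate 4 only (0.309 CPM). The rest of the list was not near 0 in the allografts. Icam2 measured 18.3, 56.3 and 31.5 CPM in the naive libraries and 31.9 to 43.3 CPM in the allografts. Vcam1 measured 0.641, 13.1 and 0 CPM in the naive libraries and 2.41 to 6.80 CPM in the allografts.

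Further lists of the same cell types were read in naive replicate 2. Of 12 other endothelial genes 10 were at least 4-fold above the highest other library there, as were 6 of 9 other mural genes and 4 of 20 other fibroblast genes, against 11.8% of all genes with over 3 counts. In the lists of endothelial adhesion (6 genes), lymphatic endothelium (5 genes) and heart capillary endothelium (6 genes), 0 were. The sum of the 12 endothelial genes was 521 CPM there, 9.05 and 54.8 CPM in the other naive libraries and 9.97 to 19.1 CPM in the allografts. Tm4sf1 was at 148.2 CPM and the water channel Aqp1 at 82.6 CPM in naive replicate 2. Fabp4, a fatty acid binding protein of capillary endothelium and of macrophages, measured 7.80, 96.6 and 54.5 CPM in the naive libraries and 0.682, 3.76, 1.08 and 4.02 CPM in the allografts. The groups did not overlap, and the log2 fold change was -4.87 (SE 1.10, adjusted p = 0.151) and, without naive replicate 2, -3.78 (SE 1.04, adjusted p = 0.113) with edgeR. DESeq2 on all 7 libraries called Fabp4 lower (-5.19, adjusted p = 0.000235), so its call depends on the tool. Of the other fibroblast and mural genes, Serpinf1 and Notch3, a receptor of mural cells, had 0 counts in naive replicates 1 and 3, 17.8 and 5.38 CPM in naive replicate 2, and 2.61 to 5.82 and 1.73 to 5.46 CPM in the allografts. They were past the threshold without naive replicate 2, having passed the filter through the allografts alone, and not with all 7 libraries (adjusted p of 0.937 and 0.998).

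Markers of other cells that carry some of these transcripts were read beside them. The sum of the macrophage list was 2.49, 334 and 480 CPM in the naive libraries and 172 to 275 CPM in the allografts. Lyz2 was its leading gene in each library. Cd68 and C1qa had 0 counts in naive replicates 1 and 3, 14.9 and 13.1 CPM in naive replicate 2, and 11.7 to 27.8 and 1.23 to 4.06 CPM in the allografts. They too passed the filter through the allografts alone and were past the threshold only without naive replicate 2 (adjusted p of 0.920 and 0.928 with all 7). The platelet list of 7 genes summed to 22.1 to 140.5 CPM in the naive libraries and 208 to 321 CPM in the allografts, nearly all from Itgb3 in every library but naive replicate 2, while the platelet glycoproteins Gp9 and Gp6 were at 0 in all 7. Pf4, Itga2b, Gp1ba and Ppbp were at 0 to 0.226 CPM in naive replicates 1 and 3, at 0 to 12.3 CPM in naive replicate 2 and at 0 to 4.92 CPM in the allografts. Without naive replicate 2, 5 of 5 platelet genes tested were higher at an unadjusted p under 0.05 with edgeR (against 15.6% of all genes) and 0 were called. Of these, Pf4, Gp1ba and Ppbp had 0 counts in naive replicates 1 and 3 and passed the filter through the allografts alone. The 5 of 5 is therefore not used as support. The part of macrophages and platelets in the Pecam1, Vwf and Fn1 values was not tested. Heart muscle genes summed to 28.0 to 93.7 CPM in the naive libraries and 88.9 to 117 CPM in the allografts, mostly from Actn2 outside naive replicate 2, and Myl2, Tnnt2 and Ryr2 were at 0 in all 7. The 5 lymphatic endothelial genes summed to 0.0754 to 5.50 CPM in the naive libraries and 2.91 to 15.4 CPM in the allografts, led by Ccl21a, and 0 of 4 tested were called in either fit. Fabp4, described above, had the smallest p in both the other endothelial and the heart capillary list, where edgeR called no gene in either fit. In the remaining lists with no edgeR call in either fit, that gene was Ccl21a, Ehd3, Slc12a3, Thy1, Gp1ba or Actc1. Their edgeR adjusted p was 0.741, 0.562, 0.147, 0.790, 0.351 and 0.341 with all 7 libraries. DESeq2 on the same libraries called 2 of these, Slc12a3 lower (adjusted p = 8.89e-05) and Actc1 higher (adjusted p = 0.0217). Gp1ba and Actc1 had 0 counts in all 3 naive libraries and passed the filter through the allografts alone. Actc1 measured 3.98, 3.21, 0 and 1.065 CPM in allograft replicates 1 to 4, and its adjusted p is not used as support.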

How the data were processed

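RNA of 7 libraries of sorted cells was analysed, 3 naive and 4 allograft, grouped by sample title. The authors deposited whole-number counts for each gene, and FPKM, which scales fragments to gene length and depth. The submitters' processing notes name FastQC 0.11.5, STAR 2.5.3a, StringTie 1.3.1c, DESeq2 1.16.1 and the build mm10. Strand use is not given in the sources used here, and 9 members (Egfl7, Eng, Sox17, Col3a1, Col5a1, Pdgfra, Fbn1, Fn1 and Tagln) share exons with another gene.

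Counts were scaled to CPM of the deposited total and tested with edgeR 4.0.16 (R 4.3.3; TMM, filterByExpr, quasi-likelihood, two-sided, Benjamini-Hochberg at 0.05 over all genes). DESeq2 1.42.0 was an alternative. The test was checked on simulated counts. The p-values measure the spread between pools of hearts. Sums over members were given with no test. Gene coordinates are those of GENCODE M21 and promoters those of RefSeq, on mm10 (GRCm38). Fold changes are given for the 3 members with the highest mean CPM in each cell type and for any member called with or without naive replicate 2. In each further list any called gene was named, or otherwise that with the smallest p. Ren1, Angpt2, Pdgfc, Pdgfd, Vegfa, Nrp1, Pgf, Tm4sf1, Aqp1, Selp, Sele, Ackr1, Icam2 and Vcam1, and the members discussed outside this rule, were picked after their values were seen. The members, lists and tests were chosen with earlier results of these data known.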

Additional observations from a re-analysis of the deposited data

Results flagged for a closer look

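A single allograft stood far from the other 3 (Dixon's ratio above 0.829) in 5 of 36 values examined. Chance alone would flag about 1.8 of 36, but where the other 3 allografts are at 0, as for Tek, Sox17 and Cspg4, any value above 0 is flagged, so the number 5 is not read against chance. In allograft replicate 3, Kdr was at 3.48 CPM, where the others held 0 to 0.275 CPM. Sox17 measured 0.612 CPM in the same library and 0 in the others. In allograft replicate 2, Lum was at 7.07 CPM, where the others held 0 to 1.158 CPM. Tek, at 0.0909 CPM (4 counts) in allograft replicate 1, and Cspg4, at 0.344 CPM in allograft replicate 4, were at 0 in the other 3 allografts.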

How the results depend on the processing

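With all 7 libraries 6 genes were called. DESeq2 called 1224, a fit with the replicate block 0 (252 at an unadjusted p under 0.05), and leaving out 1 library gave 0 to 560. That count was 107, 560 and 7 without naive replicates 1, 2 and 3, and 0 without any 1 allograft (848 to 1074 at an unadjusted p under 0.05). Of the 560, 77 had over 3 counts in naive replicate 1 or 3, a count added after seeing the data. Members called numbered 0 in every alternative except without naive replicate 2, where there were 3 (leave-one-out range 0 to 3). DESeq2 gave an adjusted p for 16 members.

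No numbers in the labels pair the libraries. Deviations of same-numbered libraries had correlations of 0.0169, -0.0196 and 0.0360, and not every library correlated best with its own number. In the fit with the replicate block, Acta2 moved to 0.78, Pdgfb to 7.11, Acvrl1 to 7.18, Serpinf1 to 7.39 and C1qa to 7.09 on the log2 scale, and the cause was not tested.

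The endothelial sum ratio was -2.80 with FPKM, -2.77 without mitochondrial counts, -2.91 with TMM sizes, -1.95 without Emcn, -1.08 as a mean of log2(CPM + 0.1), and -2.93 to 0.75 on leaving out 1 library. The fibroblast ratio was -1.62 with TMM sizes, -0.64 without Sparc, 1.45 as a mean of logs, and -1.75 to 0.19 on leaving out 1 library. The mural ratio was -0.93 as a mean of logs and -4.45 to 0.08 on leaving out 1 library. Leave-one-out ranges of log2 fold changes that changed sign were -7.50 to 1.29 for Emcn, -3.60 to 0.64 for Sparc, -5.02 to 1.47 for Acta2, -5.78 to 9.54 for Rgs5, -1.78 to 10.37 for Pdgfb, -2.12 to 10.48 for Acvrl1, -1.71 to 10.32 for Serpinf1, -0.49 to 9.82 for Notch3 and -1.86 to 9.73 for C1qa. Notch3 was at -0.31 with DESeq2 size factors and -0.30 with DESeq2. Another scaling moved the median of all genes from -0.01 to -0.20 (DESeq2 size factors). Depth limits values at or under 3 counts, which is 0.0566 to 0.103 CPM depending on the library. Fabp4, Slc12a3 and Actc1 were called by DESeq2 and in no other alternative run, and their adjusted p reached 1.0 in at least 1 alternative for each. Actc1 had 0 counts in the naive libraries, so its call is not used as support.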
